A study of Rattus norvegicus with 9 samples.

Results

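The genes of the 5 NF-κB subunits (Nfkb1, Nfkb2, Rel, Rela and Relb) and of 5 of their inhibitors (Nfkbia, Nfkbib, Nfkbie, Nfkbiz and Tnfaip3) were followed by RNA-seq in RBL-2H3 cells, a mast cell (MC) model line that derives from a rat basophilic leukemia. The members were taken by gene symbol, and all 10 were found among the 18006 genes with a value. There were 9 samples in 3 groups of 3. Ctrl samples are called untreated in the label of their treatment, although a protocol field that all 9 samples share describes sensitization and stimulation, so whether Ctrl cells carried IgE is not settled. IgE/DNP samples (DNP) were loaded with anti-DNP IgE (50 ng/mL, 12 h) and then challenged with the antigen DNP-HSA (100 ng/mL, 4 h). PF samples had the same IgE and antigen, with a pretreatment of 1 h with an agent that the labels name only as PF. The treatment labels give PF replicates 1, 2 and 3 a challenge of 4, 5 and 6 h, while the shared protocol field gives 4 h. All samples come from 1 cell line, and the labels do not say whether replicates were separate cultures, so p-values measure the spread between these samples only, which may be technical.

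NF-κB is a family of dimeric transcription factors. Rela, Rel and Relb carry a transactivation domain, whereas Nfkb1 and Nfkb2 encode long precursors that are trimmed to DNA-binding partners without one. In resting cells the dimers are held in the cytoplasm by IκB proteins, which the IKK kinase complex marks for degradation after stimulation. In MCs, cross-linking of the IgE receptor by antigen is known to activate this pathway, which contributes to cytokine transcription. Several of the genes, among them Nfkbia, Tnfaip3, Nfkb1, Nfkb2 and Relb, are known targets of NF-κB themselves and so form feedback loops.

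Values were read as FPKM, since the deposited heading names no unit. In this unit the fragments of a gene are scaled by transcript length and by the mapped total of the sample, so levels of different genes can be set side by side. They summed to between 573023 and 630069 FPKM per sample, and the number of reads is unknown. Of 10 mast cell and basophil markers, 8 had values, with Fcer1a at 410 to 503 FPKM, Ms4a2 at 417 to 486 FPKM and Kit at 216 to 289 FPKM, while Tpsab1 and Tpsb2 had none. The labels also call the material peripheral blood. Summed markers of other blood cells were low in all groups, at 0.79 to 1.05 FPKM over 5 macrophage genes, 0.36 to 1.15 FPKM over 2 B cell genes and 0.15 to 1.86 FPKM over 4 erythroid genes. The 4 T cell genes summed to 6.78 to 9.61 FPKM, nearly all of it Cd3e, with Cd3d at no more than 0.11 FPKM.

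Because these factors are known to act on their own genes, the DNA around the members' start sites was searched for letters of the κB type. RefSeq promoter windows (build GRCr8, 250 bases before to 50 bases after the start) were matched for 9 of the 10 members, all except Relb. The motif GGNNTTTCC, searched on both strands, was chosen after these windows had been read. It was found in 6 of the 9 windows, against 6.03% of 27457 promoter windows of the same length and 6.15% of the 13434 windows of genes with a value. Since the choice was made on these same windows, this contrast is a description and not a test. A looser motif, GGG and CC with 5 bases of any kind between them, was found in 9 of 9, against 48.46% of all windows and 60.7% of the windows of genes with a value, and it overlapped 7 of the 8 matches of the first motif. The bases G and C made up 57.0% to 77.3% of the members' windows, and the other windows were not matched for this. The 8 matches are shown in the direction of the gene, with the matching bases in capitals and flanks in lower case.
Nfkb1: gacgtcagtgGGAATTTCCagccaggaag
Nfkb2: ggtattttcgGGACTTTCCtaagagcact
Rel: gtaggcagcgGGAAATCCCcccccgttcc
Nfkbia, distal: ctggtcgggaGGACTTTCCagccactcag
Nfkbia, proximal: tgactggcttGGAAATTCCccgcgcctga
Nfkbiz: ttttggcctgGGAATTTCCagcgtgtgga
Tnfaip3, distal: tcacgtgactGGAAAGTCCctcggaaatc
Tnfaip3, proximal: aaagtccctcGGAAATCCCcctgtggcga

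The printed stretch of Nfkb1 lies at chr2:226805440-226805468 on the minus strand, and its match begins at base 5 of the transcript. That of Nfkb2 is at chr1:255108345-255108373 on the plus strand, with the match beginning 19 bases before the start. The match of Rel, at chr14:101922001-101922029 on the minus strand, begins 81 bases before the start. The Nfkbia matches begin 180 and 31 bases before the start (chr6:78597234-78597262 and chr6:78597085-78597113, minus strand), and those of Tnfaip3 begin 67 and 55 bases before it (chr1:15544028-15544056 and chr1:15544016-15544044, minus strand). The match of Nfkbiz, at chr11:58251699-58251727 on the plus strand, begins 12 bases before the start. The windows of Rela, Nfkbib and Nfkbie did not hold these 9 letters. The 6 genes with a match did not move together. Between PF and DNP samples, 3 of them fell (Nfkb1, Nfkb2 and Nfkbia), 2 rose (Nfkbiz and Tnfaip3) and Rel did not pass the test, as given in the comparisons that follow. A match describes letters in a window and not a bound site.

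In Ctrl samples the mRNAs of 2 inhibitors stood above those of all subunits. Nfkbia, which encodes IκBα, had the highest level of the 10 at 221 ± 22.2 FPKM (SD, n = 3), and Tnfaip3, which encodes the ubiquitin-editing enzyme A20, followed with 102 ± 6.11 FPKM. Nfkb1 (44.5 ± 0.980 FPKM), Nfkbib (41.5 ± 1.64 FPKM), Rela (39.4 ± 1.47 FPKM) and Nfkbiz (37.0 ± 4.43 FPKM) formed a middle range. Within it the values of Nfkbib overlapped those of Rela, and those of Rela overlapped those of Nfkbiz. Rel was at 18.1 ± 1.28 FPKM and Nfkb2 at 16.5 ± 0.244 FPKM. Relb (7.28 ± 0.125 FPKM) and Nfkbie (7.21 ± 1.45 FPKM) were lowest, with overlapping values. The order of the 10 genes was the same in DNP samples. In PF samples Nfkbiz moved up to the third place, Nfkb1 down to the sixth and Relb down to the last, as the plot of the levels by sample shows.

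**Figure D1:**
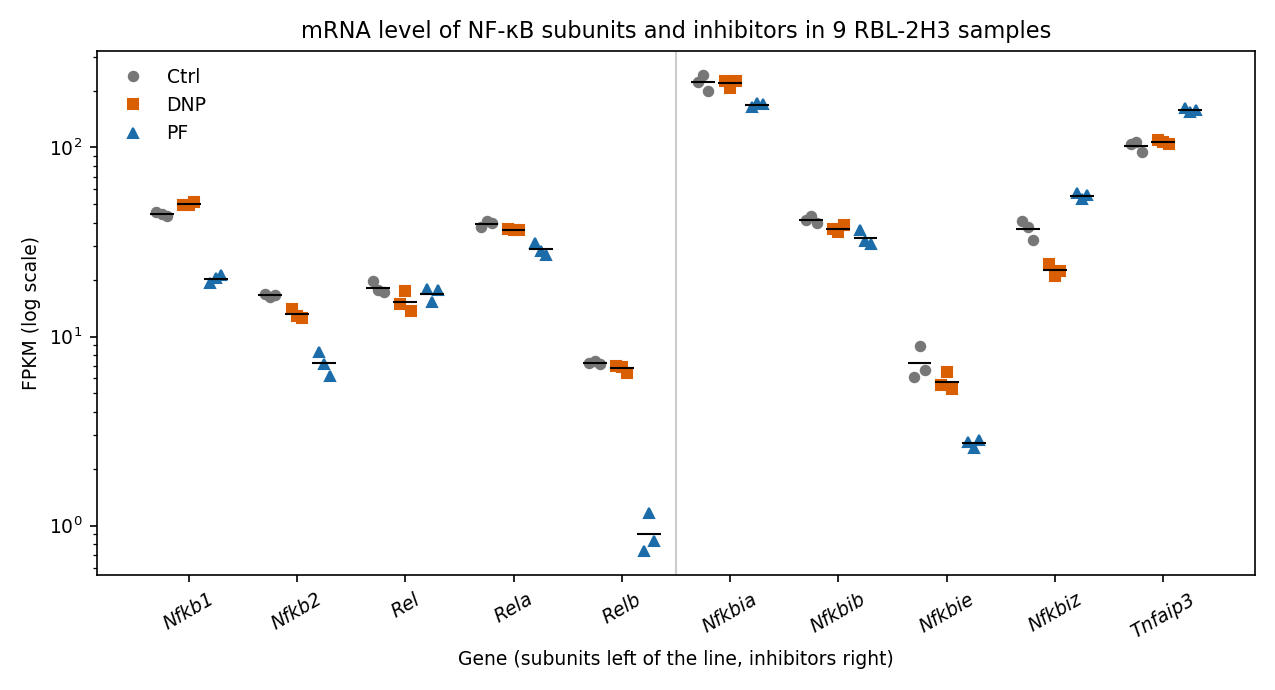
FPKM on a log scale of the 5 subunit and 5 inhibitor genes in the 3 Ctrl, 3 DNP and 3 PF samples, with each sample as a point and the group mean as a bar. The PF samples of Relb sit between 0.73 and 1.16 FPKM, below all Ctrl and DNP samples, and those of Nfkbiz and Tnfaip3 sit above them.

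The first comparison sets cells with IgE and antigen against Ctrl cells. Since it is not settled whether Ctrl cells carried IgE, the part of antigen alone cannot be told apart. Between DNP and Ctrl samples, Nfkbiz, Nfkb2 and Nfkbib fell, Nfkb1 rose, and the other 6 members did not pass the test. The mean FPKM of Nfkbiz was 1.65 times higher in Ctrl, and the other 3 called members differed by no more than 0.31 on the log2 scale. All 10 members passed the filter on low values, which kept a gene when 3 or more of the 6 samples reached 1 FPKM. With limma on log2(FPKM + 1) and a Benjamini-Hochberg adjusted p of at most 0.05, 4 of the 10 passed, against 29.2% of the 10392 genes tested. Of these 4, 1 was higher, against 14.7% of all genes, and 3 were lower, against 14.4%. The groups did not overlap for 6 of the 10, against 45.8% of all genes. The median log2 fold change was -0.13 over the members and -0.01 over all genes tested. All fold changes are on the log2(FPKM + 1) scale, on which the change of a weakly expressed gene is understated. Where 2 groups of 3 samples do not overlap, the two-sided exact permutation test gives p = 0.1, the smallest it can reach.

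Nfkbiz encodes IκBζ, a nuclear IκB protein that modulates transcription at selected κB promoters and does not retain dimers in the cytoplasm. Its Ctrl values were 40.93, 37.89 and 32.21 FPKM, and its DNP values were 24.29, 20.78 and 22.27 FPKM. Every DNP sample was below every Ctrl sample. The log2 fold change was -0.69 (standard error [SE] 0.0882, limma adjusted p = 0.00104), which placed Nfkbiz 49th from the lowest of the 10392 genes, of which 1.49% had a larger change in either direction.

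Nfkb2, the precursor gene of the noncanonical pathway, was at 16.70, 16.24 and 16.61 FPKM in Ctrl and at 14.02, 12.80 and 12.60 FPKM in DNP samples. The groups did not overlap, and the log2 fold change was -0.31 (SE 0.0532, limma adjusted p = 0.00394). Its paralog Nfkb1, which encodes the precursor of the canonical DNA-binding partner, moved the other way. It was at 45.49, 44.46 and 43.53 FPKM in Ctrl and at 49.58, 49.91 and 51.21 FPKM in DNP samples. All DNP samples were higher than all Ctrl samples, and the log2 difference was 0.17 (SE 0.0351, limma adjusted p = 0.00820).

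Nfkbib, which encodes the cytoplasmic inhibitor IκBβ, was at 41.46, 43.20 and 39.92 FPKM in Ctrl and at 36.98, 35.53 and 38.74 FPKM in DNP samples. The groups did not overlap, and the log2 fold change was -0.16 (SE 0.0463, limma adjusted p = 0.0330). Only 5 of 13 alternative fits at the same threshold made this call. It was lost without Ctrl replicate 1 (log2 fold change -0.16, limma adjusted p = 0.0683), Ctrl replicate 2 (-0.13, 0.0953), DNP replicate 1 (-0.16, 0.0852) or DNP replicate 2 (-0.13, 0.112), under a block for the replicate number (limma adjusted p = 0.0706), with all 3 groups in the fit (0.0748), without the filter (0.0616) and without the trend (0.0620). Another annotated gene, LOC103689966, overlaps Nfkbib, and it was at no more than 0.64 FPKM in any sample.

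The remaining members gave no call between DNP and Ctrl. Nfkbia was at 222.12, 242.89 and 198.61 FPKM in Ctrl and at 224.89, 206.02 and 224.40 FPKM in DNP samples. The ranges overlapped almost wholly, and the 95% interval of the log2 difference ran from -0.17 to 0.15. Tnfaip3 was at 104.35, 106.73 and 95.16 FPKM in Ctrl and at 110.10, 107.16 and 104.54 FPKM in DNP samples, with an interval from -0.04 to 0.18. Relb (interval -0.22 to 0.05), Rela (-0.19 to -0.01), Rel (-0.43 to -0.04) and Nfkbie (-0.55 to 0.02) had lower means in DNP. Their limma adjusted p ranged from 0.0741 for Rel to 0.296 for Relb. The intervals are for single genes and are not adjusted for the number of genes tested. Those of Rela and Rel thus lay wholly on the negative side without a call. Relb and Rela did not overlap between the groups, whereas Rel and Nfkbie did. Without DNP replicate 2 the adjusted p of Rel was 0.0227 (log2 fold change -0.32), and with the replicate block that of Nfkbie was 0.0481.

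The second comparison asks how the same mRNAs stood in antigen-stimulated cells after the pretreatment with PF. By the treatment labels PF replicates 2 and 3 had 5 and 6 h of challenge, against 4 h in DNP samples. If so, the parts of PF and of time cannot be told apart in them. Here most members changed, and not in 1 direction. Relb, Nfkb1, Nfkbie, Nfkb2, Nfkbia and Rela fell, Nfkbiz and Tnfaip3 rose, and Rel and Nfkbib did not pass the test. All 10 members passed the filter. Relb did so with 4 of the 6 samples, 3 of them DNP samples. By limma 8 of the 10 passed, against 48.8% of the 10329 genes tested. They were 6 lower genes, against 30.7% of all genes, and 2 higher genes, against 18.1%. The groups did not overlap for the same 8 genes, against 57.6% of all genes. The median log2 fold change was -0.36 over the members and -0.04 over all genes tested. Over all genes, 1870 rose and 3172 fell with the deposited values, 869 and 4302 after scaling every sample to the mean sum, and 2758 and 2600 with scaling by median ratios. The members stood at 2 higher and 7 lower with the scaling to sums, where Nfkbib was added, and at 2 higher and 6 lower with median ratios. In PF replicate 1 alone, given 4 h in both fields, the log2 differences of the 8 from the DNP mean kept their direction. They were -2.17 (Relb), -1.35 (Nfkb1), -0.84 (Nfkbie), -0.61 (Nfkb2), -0.41 (Nfkbia), -0.23 (Rela), 1.32 (Nfkbiz) and 0.59 (Tnfaip3). These values from 1 PF sample are given without a test. In bulk samples such as these, fewer cells that make an mRNA and less of it per cell cannot be told apart.

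Relb changed most among the members. It encodes the subunit that pairs with the product of Nfkb2 in the noncanonical pathway. Its mRNA was at 7.0, 6.93 and 6.45 FPKM in DNP samples and at 0.73, 1.16 and 0.83 FPKM in PF samples. The groups were far apart, and the mean FPKM was 7.49 times higher in DNP than in PF. The log2 fold change was -2.04 (SE 0.0982, limma adjusted p = 1.06e-06), the 12th lowest of the 10329 genes tested. The pseudocount holds this value down, and with 0.1 in its place it was -2.80 (limma adjusted p = 3.19e-06).

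Nfkb1 was at 49.58, 49.91 and 51.21 FPKM in DNP and fell to 19.08, 20.44 and 21.20 FPKM in PF samples. No sample of PF came near the DNP range, and the log2 fold change was -1.27 (SE 0.0458, limma adjusted p = 3.16e-07). Nfkb2 fell less far, from 14.02, 12.80 and 12.60 FPKM to 8.27, 7.19 and 6.22 FPKM. Its log2 fold change was -0.79 (SE 0.0910, limma adjusted p = 1.48e-04), again with groups that did not overlap.

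Rela, which encodes the main transactivating subunit of the canonical pathway, was at 37.18, 36.54 and 36.48 FPKM in DNP and at 31.16, 28.35 and 27.15 FPKM in PF samples. All PF samples were lower, with a log2 fold change of -0.34 (SE 0.0518, limma adjusted p = 7.34e-04). Rel, the lymphoid and myeloid subunit, was at 14.93, 17.35 and 13.63 FPKM in DNP and at 17.78, 15.14 and 17.72 FPKM in PF samples. It was the 1 subunit whose mean was higher in PF, but the samples overlapped and the 95% interval of the log2 difference ran from -0.07 to 0.34.

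Among the cytoplasmic inhibitors, Nfkbie, which encodes IκBε, had the largest fall. It was at 5.55, 6.47 and 5.29 FPKM in DNP and at 2.77, 2.58 and 2.83 FPKM in PF samples. The groups did not overlap, and the log2 fold change was -0.86 (SE 0.0843, limma adjusted p = 5.68e-05). Nfkbia went from 224.89, 206.02 and 224.40 FPKM to 163.93, 171.55 and 169.28 FPKM. All PF samples were below the DNP samples, with a log2 fold change of -0.37 (SE 0.0409, limma adjusted p = 1.07e-04). Nfkbib was at 36.98, 35.53 and 38.74 FPKM in DNP and at 36.51, 32.14 and 30.77 FPKM in PF samples. PF replicate 1 lay inside the DNP range, and the log2 fold change of -0.16 (SE 0.0636, limma adjusted p = 0.0641) did not pass the test. Without PF replicate 1 it was -0.23 (limma adjusted p = 0.00873). In PF replicate 1 alone, the sample given 4 h in both fields of the labels, the log2 difference from the DNP mean was -0.02, a value from 1 PF sample that is given without a test.

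Nfkbiz and Tnfaip3 rose. Nfkbiz was at 24.29, 20.78 and 22.27 FPKM in DNP and at 57.36, 53.25 and 56.00 FPKM in PF samples. All PF samples were above all DNP samples by far, with a log2 fold change of 1.27 (SE 0.0578, limma adjusted p = 8.25e-07) that was the 18th highest of the 10329 genes tested. Tnfaip3 was at 110.10, 107.16 and 104.54 FPKM in DNP and at 161.76, 154.48 and 156.91 FPKM in PF samples. These groups also did not overlap, and the log2 fold change was 0.55 (SE 0.0337, limma adjusted p = 3.62e-06). Both genes are grouped with the inhibitors here, but their products act at different steps, A20 on ubiquitin chains above IKK and IκBζ in the nucleus.

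**Figure D2:**
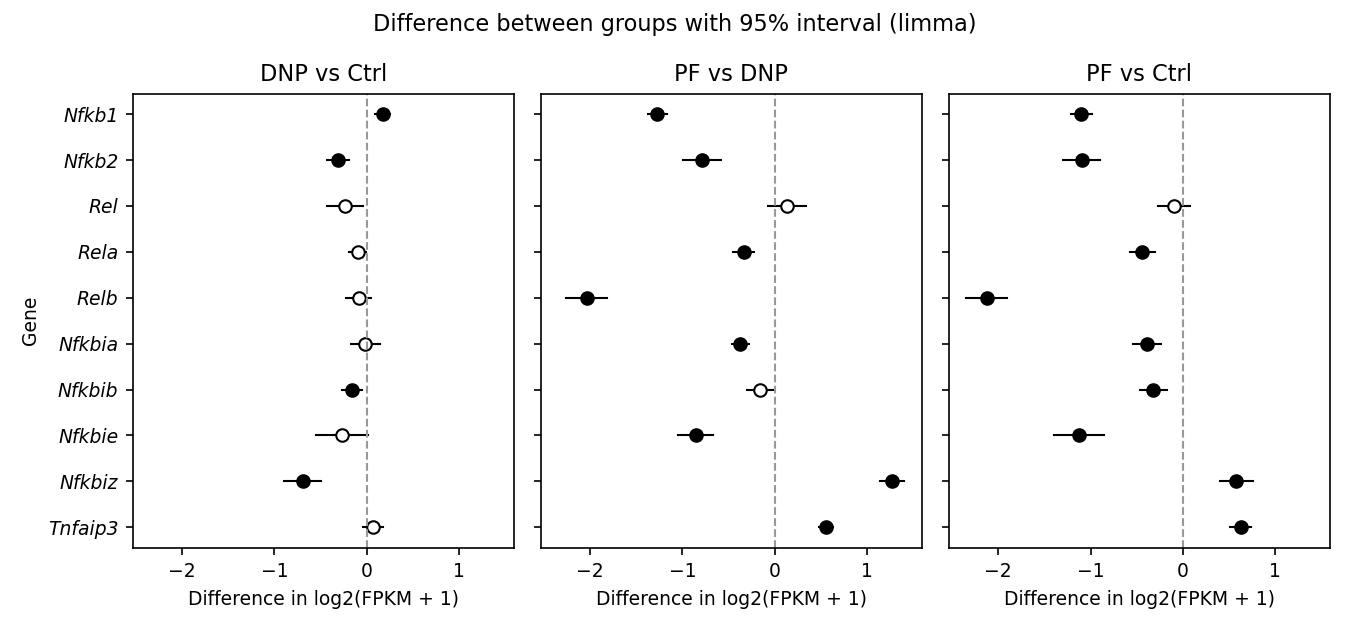
Difference in log2(FPKM + 1) between groups for each of the 10 genes (points) with its 95% interval from limma (lines), for DNP vs Ctrl, PF vs DNP and PF vs Ctrl. Filled points have an adjusted p of at most 0.05 over all genes tested, whereas the intervals are for single genes and are not adjusted. Relb lies near -2 in both comparisons with PF, and Nfkbiz lies below 0 in DNP vs Ctrl and above 0 in the others.

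The third comparison sets PF samples against Ctrl samples, and thus shows whether a member stood above or below its Ctrl level. It shares the PF samples with the second comparison and the Ctrl samples with the first. By limma 9 of the 10 members passed, against 57.7% of the 10361 genes tested. Of these, 7 were lower in PF than in Ctrl, against 34.6% of all genes, and 2 were higher, against 23.1%. The groups did not overlap for 9 of the 10, against 64.8% of all genes. The median log2 fold change was -0.41 over the members and -0.05 over all genes tested. Over all genes, 2389 rose and 3586 fell with the deposited values, 1575 and 4316 with scaling to the mean sum, and 3142 and 3012 with median ratios, while the members stayed at 2 higher and 7 lower with either scaling.

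Relb was at 7.27, 7.41 and 7.16 FPKM in Ctrl against 0.73, 1.16 and 0.83 FPKM in PF, so its mean was 8.03 times higher in Ctrl. Relb passed the filter here through its Ctrl samples and PF replicate 2. The log2 fold change was -2.13 (SE 0.0958, limma adjusted p = 1.35e-06), the fifth lowest of the 10361 genes, and with a pseudocount of 0.1 it was -2.90. Nfkbie (-1.13, SE 0.118), Nfkb1 (-1.10, SE 0.0495) and Nfkb2 (-1.10, SE 0.0871) were likewise lower in every PF sample than in every Ctrl sample, with limma adjusted p of 7.68e-05, 1.35e-06 and 1.81e-05. Rela (-0.44), Nfkbia (-0.39) and Nfkbib (-0.32) fell less, with limma adjusted p of 2.81e-04, 0.00122 and 0.00309. With PF replicate 1 as the only PF sample, Nfkbib did not pass (log2 fold change -0.18, limma adjusted p = 0.0821), but in that fit only the Ctrl samples give the spread and the lone PF sample is assumed to vary like them. Rel did not pass, with a 95% interval from -0.27 to 0.07.

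Nfkbiz was thus below Ctrl in DNP samples and above it in PF samples, where the log2 fold change against Ctrl was 0.58 (SE 0.0795, limma adjusted p = 3.55e-04). Its highest Ctrl sample was at 40.93 FPKM and its lowest PF sample at 53.25 FPKM. Tnfaip3 had not passed the test between DNP and Ctrl and was higher in PF than in Ctrl by 0.62 (SE 0.0485, limma adjusted p = 1.63e-05). Nfkb1 was above Ctrl in DNP and below it in PF. Nfkb2 and Nfkbib were below Ctrl in both.

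Because FPKM is scaled to gene length, the mRNA of each subunit can be given as a share of all 5. This describes the make-up of the pool and was not tested. In Ctrl samples Nfkb1 held 35.3 ± 0.433% (SD, n = 3), Rela 31.3 ± 1.32%, Rel 14.4 ± 0.905%, Nfkb2 13.1 ± 0.260% and Relb 5.78 ± 0.070%. In DNP samples the share of Nfkb1 was 41.1 ± 1.24% and that of Nfkb2 10.8 ± 0.586%. In PF samples Rela became the most abundant with 38.9 ± 1.68%, ahead of Nfkb1 with 27.3 ± 2.26%, and this order held in all 3 samples. Rel held 22.8 ± 1.67% and Relb 1.23 ± 0.338% there. A rise in a share need not be a rise in level, since the FPKM of Rela was lower in PF and the sum over the 5 subunits was 74.1 ± 2.53 FPKM in PF, against 122 ± 1.64 FPKM in DNP and 126 ± 1.40 FPKM in Ctrl. The 3 cytoplasmic inhibitors together were at 270 ± 24.9 FPKM in Ctrl, 261 ± 11.5 FPKM in DNP and 204 ± 1.87 FPKM in PF. Their sum was therefore 2.14 ± 0.181 times that of the subunits in Ctrl, 2.14 ± 0.116 times in DNP and 2.76 ± 0.109 times in PF samples. This ratio counts the precursor genes Nfkb1 and Nfkb2 as subunits only. Both had lower means in PF than in DNP (20.2 against 50.2 FPKM and 7.23 against 13.1 FPKM). The ratio thus depends on where these 2 genes are counted and does not measure inhibition. Within the inhibitors, Nfkbia held 80.7% to 84.1% in every sample.

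**Figure D3:**
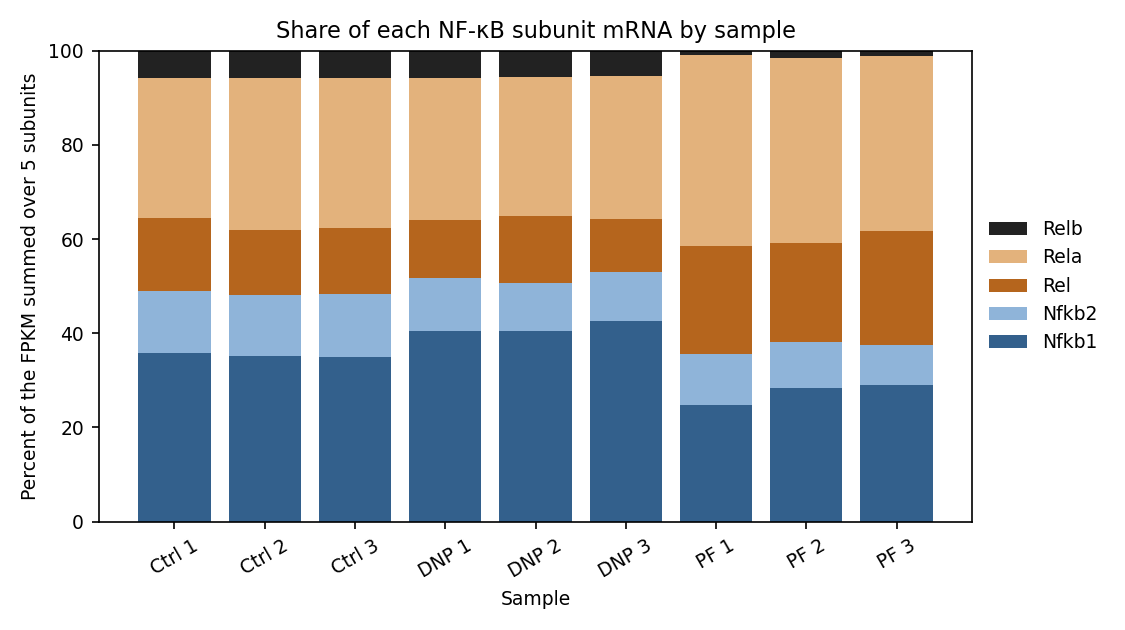
Share of each of the 5 subunit mRNAs in their summed FPKM, in percent, as stacked bars for the 9 samples. Relb falls from between 5.36% and 5.86% in the Ctrl and DNP samples to between 0.948% and 1.61% in the PF samples, and Rela is the largest share in the PF samples only.

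Other genes of the pathway were taken from 4 lists with 42 genes in all. They were 10 genes of the IKK complex and of kinases and kinase adaptors above it, 13 receptor-proximal adaptors, 16 ubiquitin ligases, editors and A20 partners, and 3 further IκB family genes. The lists were chosen with earlier results of these data known. Their counts beside the shares of all genes are therefore a description and not a test. In DNP vs Ctrl, 39 of the 42 were tested, 4 were higher and 8 lower, where 14.7% and 14.4% of all genes were. The largest rises were those of Ikbke, an IKK-related kinase (3.50 ± 0.257 to 5.96 ± 0.235 FPKM, log2 fold change 0.63, limma adjusted p = 6.63e-04), N4bp1, a suppressor of NF-κB signalling (0.57, 1.54e-04), and Fbxw11, a subunit of the ligase that recognises phosphorylated IκB (0.36, 4.78e-04). The largest falls were those of Nfkbil1 (-0.39, limma adjusted p = 0.0225), the Toll receptor adaptor Myd88 (-0.30, 0.00447) and the adaptor Traf2 (-0.27, 0.0101). The catalytic IKK subunits Chuk and Ikbkb did not pass.

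In PF vs DNP, 38 of the 42 were tested, 2 were higher and 19 lower, where 18.1% and 30.7% of all genes were. With scaling by median ratios 7 were higher, where 2758 of 10318 genes were. Without DNP replicate 1, DNP replicate 2 or PF replicate 1, 1 was higher. Over all genes these fits gave 1510 of 10167, 1512 of 10162 and 1499 of 10270 higher. Of the 19 lower genes, 8 were adaptors (of 12 tested) and 7 were in the ubiquitin list (of 15). The IKK list gave 3 (Tab1, Tab2 and Tbk1, of 9), of which only Tbk1 is a kinase, and the further IκB genes gave 1 (of 2). TRAF adaptors link receptors to IKK through ubiquitin chains. Traf2 had means of 12.8 ± 0.530 FPKM in DNP and 5.75 ± 0.552 FPKM in PF and fell by 1.04 on the log2 scale (limma adjusted p = 7.25e-06). Traf5 (-0.87, limma adjusted p = 4.59e-06) and Traf6 (-0.85, 6.47e-05) also fell. The 2 higher genes were Nfkbid, another nuclear IκB protein, which went from 5.93 ± 0.374 to 9.42 ± 0.904 FPKM (log2 fold change 0.59, limma adjusted p = 3.48e-04), and the kinase adaptor Tab3 (0.18, 0.0455). Bcl3, also a nuclear IκB gene, was at no more than 0.40 FPKM in any sample and was not tested.

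In PF vs Ctrl, 31 of 39 genes tested passed, 8 higher and 23 lower, where 23.1% and 34.6% of all genes were. Map3k14, which is among the lower genes, passed the filter only through its Ctrl samples. It was at 1.15, 1.18 and 1.28 FPKM there and at 0.43, 0.44 and 0.62 FPKM in PF. Traf2 (-1.30, limma adjusted p = 3.73e-06), Traf5 (-0.79, 1.10e-05) and the kinase Ripk1 (-0.78, 2.96e-05) were lowest. Ikbke (0.84, limma adjusted p = 6.35e-05), Nfkbid (0.39, 0.00894) and Tab3 (0.25, 0.0148) were highest. With PF replicate 1 as the only PF sample, the median log2 fold change was -0.20 over the pathway genes and -0.05 over all genes. These are values from 1 PF sample and are given without a test. With scaling to the mean sum, 2 were higher, where 1575 of 10343 genes were. Without Ctrl replicate 1, Ctrl replicate 2 or PF replicate 1 the higher genes were 5, 3 and 4. Over all genes these fits gave 2024 of 10163, 2175 of 10166 and 1979 of 10269 higher.

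Of 26 textbook target genes of NF-κB, 15 were tested in each comparison, and the others were below the filter or had no value. This list, too, was chosen with earlier results of these data known, so its counts beside the shares of all genes are no test. The cytokine genes Il6, Il1b and Lta were at no more than 0.27 FPKM in any sample. In DNP vs Ctrl, 6 were higher and 4 lower, where 14.7% and 14.4% of all genes were. The chemokine gene Ccl2 (log2 fold change 1.59, limma adjusted p = 1.16e-06), Plau, which encodes urokinase (1.48, 2.33e-05), and Ptgs2, the inducible cyclooxygenase (0.65, 1.69e-04), rose most. The survival gene Bcl2l1 (-0.47, limma adjusted p = 0.00103), Irf1 (-0.45, 0.00157) and the adhesion gene Icam1 (-0.24, 0.0116) fell most. These targets also answer to other factors, so their levels do not measure NF-κB activity.

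In PF vs DNP, 11 of the 15 targets were lower and 2 higher, where 30.7% and 18.1% of all genes were, as the plot of the pathway and target genes shows. Plau went from 25.04 ± 1.503 to 4.95 ± 0.613 FPKM (log2 fold change -2.13, limma adjusted p = 4.53e-07), followed by Csf1, the macrophage growth factor (-1.44, 4.52e-08), and Ccl2 (-1.31, 1.06e-06). Tnf moved against these. It was at 9.24, 7.49 and 8.15 FPKM in DNP and at 20.68, 15.40 and 15.15 FPKM in PF samples, with no overlap and a log2 difference of 0.95 (SE 0.117, limma adjusted p = 2.14e-04). Sod2, the mitochondrial superoxide dismutase, rose by 0.18 (limma adjusted p = 0.00950). With scaling to the mean sum, 1 target was higher in PF vs DNP, where 869 of 10320 genes were. In PF vs Ctrl, 9 targets were lower and 4 higher, where 34.6% and 23.1% of all genes were. With that scaling 2 were higher, where 1575 of 10343 genes were. The apoptosis inhibitor Birc3 (-1.43, limma adjusted p = 1.29e-06), Irf1 (-1.003, 8.52e-06) and Csf1 (-0.97, 1.31e-06) were lowest, and Tnf (1.29, 9.36e-05), Ccl2 (0.28, 0.00951) and Ier3 (0.24, 0.0157) were highest.

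**Figure D4:**
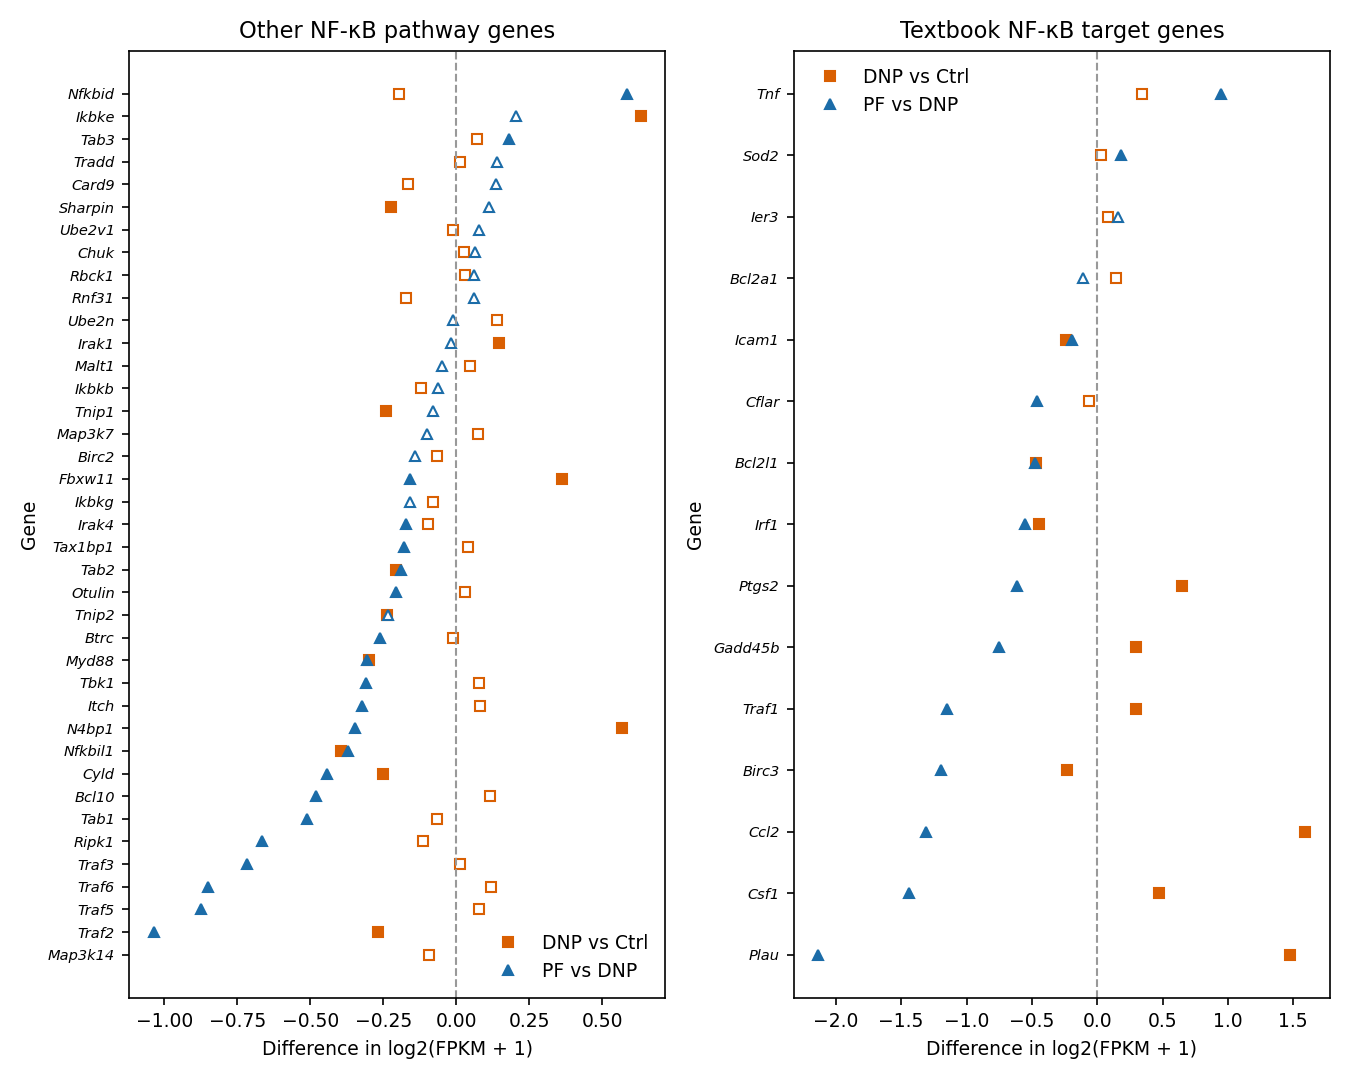
Difference in log2(FPKM + 1) for other NF-κB pathway genes (left) and textbook target genes (right) in DNP vs Ctrl (squares) and PF vs DNP (triangles), with filled symbols for an adjusted p of at most 0.05. Map3k14 passed the filter in DNP vs Ctrl but not in PF vs DNP. In PF vs DNP, Traf2, Traf5, Traf6 and Traf3 lie farthest below 0 on the left, and Tnf lies at 0.95 on the right.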

How the data were processed

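After read filtering with SOAPnuke, the authors used HISAT2 2.0.4, Bowtie2 2.2.5 and RSEM 1.2.12 (versions from the submitters' processing notes). The deposited values, 1 for each gene in each sample, were taken to be FPKM because they are not whole, differ in their sums and come from RSEM. The labels name Illumina library protocols, and the study's methods name a BGISEQ sequencer. The labels name the rn6 build, and the annotation is not given in the sources used here. Of 38490 gene rows, 18006 had a value. Samples were grouped by their titles and joined by gene identifier. Genes that reached 1 FPKM in 3 or more of the 6 samples of a comparison were tested with limma 3.58.1 in R 4.3.3 (lmFit, eBayes with trend) on log2(FPKM + 1), with Benjamini-Hochberg adjustment over all genes tested. The test was checked on simulated data. Depth in reads is unknown, so precision rests on the 3 replicates. The members and gene lists were chosen with earlier results of these data known. Named beside the members are, in each comparison, the 3 highest and 3 lowest called genes of the pooled pathway lists and of the targets. Other settings were a pseudocount of 0.1, no filter, all 3 groups in the fit, a replicate block, each sample left out, 2 scalings, no trend, a threshold of 0.01 and PF replicate 1 alone. Promoter sequences are from RefSeq.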

Additional observations from a re-analysis of the deposited data

How the results depend on the processing

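Counts of members called stayed within 1.5 times in every alternative run, with 3 to 4 called in DNP vs Ctrl (1 higher, 2 to 3 lower), 8 to 9 in PF vs DNP and 8 to 9 in PF vs Ctrl, the samples left out in turn included. Of the members called, 3, 8 and 8 were called in every alternative fit at the 0.05 threshold in the 3 comparisons. The exceptions were Nfkbib in DNP vs Ctrl and in PF vs Ctrl. Nfkbia in DNP vs Ctrl had a log2 fold change of 0.004 with scaling to the mean sum, 0.055 without Ctrl replicate 2 and 0.027 without DNP replicate 2, with -0.089 to 0.055 over the samples left out, against -0.015 as reported, and none of these passed. Pathway genes called in DNP vs Ctrl were 7 at a threshold of 0.01 (4 lower), where 1469 of 10392 genes were called (652 lower). In PF vs Ctrl they were 17 with PF replicate 1 alone (2 higher, 15 lower), where the lone PF sample is assumed to vary like the Ctrl samples, with 5 higher without the filter, 2 with scaling to the mean sum and 3 at 0.01, and 3 to 7 higher with samples left out (5, 3 and 4 without Ctrl replicate 1, Ctrl replicate 2 and PF replicate 1). In PF vs DNP 7 were higher with median ratios, where 2758 of 10318 genes were. Without the filter, with the replicate block, with scaling to the mean sum or at 0.01, 1 was higher. Over all genes these settings gave 1620 of 17414, 1704 of 10329, 869 of 10320 and 1101 of 10329 higher. With samples left out 1 to 2 pathway genes were higher (1 without DNP replicate 1, DNP replicate 2 or PF replicate 1). Targets higher with scaling to the mean sum were 2 in PF vs Ctrl and 1 in PF vs DNP, where 1575 of 10343 and 869 of 10320 genes were. The cause was not tested. Over all genes, DNP vs Ctrl gave 1469 calls at 0.01, PF vs DNP 3445 of 10329 and PF vs Ctrl 4446 of 10361. Same-numbered samples deviated together at correlations from -0.073 to 0.182, highest between Ctrl and PF (0.0856, 0.182 and 0.0795). Samples with different numbers were not compared, so whether the numbers pair samples is not settled. The main fits did not pair them. The replicate block changed the member calls of Nfkbib and Nfkbie in DNP vs Ctrl only, and 2697, 4675 and 6009 genes were called with it in DNP vs Ctrl, PF vs DNP and PF vs Ctrl.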

Other observations

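For the 3 members with the widest range of group means, the genes whose 9 values were most like theirs were looked up among 10280 genes with a mean of at least 1 FPKM, by the root mean square difference of log2(FPKM + 1) after subtracting each gene's Ctrl mean. Nearest to Relb were Adnp2, at 11.2 ± 0.926, 10.4 ± 0.374 and 1.86 ± 0.0874 FPKM (SD, n = 3 each) in Ctrl, DNP and PF samples (difference 0.0883), Zc3h10 (0.112) and Chac1 (0.124), an enzyme that degrades glutathione. From DNP to PF, Zc3h10 went from 12.1 ± 0.372 to 2.55 ± 0.542 FPKM and Chac1 from 45.5 ± 0.689 to 11.7 ± 0.684 FPKM. The pseudocount holds down the change of Relb more than theirs, so likeness on this scale is not likeness in the ratio of FPKM. Nearest to Nfkb1 were the cytokine gene Osm, at 119 ± 6.35, 129 ± 3.34 and 56.8 ± 3.51 FPKM (difference 0.0665), LOC103694538 (0.0719) and Chst12 (0.0726), a chondroitin sulfotransferase. Nearest to Nfkbiz were LOC102548682 (0.177), LOC102549173 (0.253) and Masp2 (0.264), so by this measure no gene was as near to Nfkbiz as those named were to Relb and Nfkb1. The measure includes the spread between replicates, and Nfkbiz ranged from 32.21 to 40.93 FPKM within Ctrl. A larger difference therefore need not mean a rarer pattern across the groups. These genes were picked for their likeness, and the values describe them without a test.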
